A study of Rattus norvegicus with 20 samples.

Results

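The proteasome genes of rat femur were read here as all probe sets whose single annotated symbol starts with Psma, Psmb, Psmc, Psmd, Psme or Psmg. These were 59 of the 31042 probe sets of the array, for 45 of the 14217 genes with a symbol of their own, and 43 of those genes (57 probe sets) code for proteasome subunits, activators or assembly chaperones. Psmc3ip and Psme3ip1 were taken in by their names alone, as proteins named for binding a subunit. The 20 arrays measured RNA from the proximal femora of 4-week-old inbred rats, 5 arrays for each of 4 strains. P.NP congenic rats carried the NP form of the 4q22-q34 segment of chromosome 4 on the P background, and P (alcohol-preferring) rats were their parental strain. NP.P congenic rats carried the P form of that segment on the NP background, and NP (alcohol-non-preferring) rats were their parental strain. Each congenic strain was made by 10 generations of backcrossing, so that it should match its parental strain outside the segment, and the study used male rats. The comparison of each congenic strain with its parental strain addresses the transferred segment, and the comparison of P.NP and P with NP.P and NP addresses the rest of the genome. Of the 45 genes only Psmc2 lay on chromosome 4, at 14148080 to 14162390 in the GRCr8 assembly, and it lay outside the stretch between Arf5 and Ppp4r2 (58003919 to 135010919) taken here for the segment.

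The proteasome is the protease complex that degrades ubiquitin-tagged proteins in the cytosol and nucleus. Its core particle is a barrel of alpha rings (Psma genes), which gate the entry, and beta rings (Psmb genes), which hold the proteolytic sites, and its regulatory cap is built of ATPases that unfold the substrate (Psmc) and of subunits that bind and deubiquitinate it (Psmd). In blood-forming and immune cells, and after interferon, the inducible beta subunits Psmb8, Psmb9 and Psmb10 replace the constitutive Psmb5, Psmb6 and Psmb7, and this immunoproteasome makes peptides for presentation on class I molecules of the major histocompatibility complex. In bone, proteasome inhibitors are used against myeloma and are known from mice to stimulate bone formation.

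Promoter sequences are shown for the inducible trio Psmb8, Psmb9 and Psmb10, of which only Psmb8 was called between the strains, and for Psmd13 and Psma5, the constitutive subunits with the smallest adjusted p for a lower signal on the P background. The sequences are from RefSeq (GRCr8), and are the assembly's, not those of the P or NP strains. Windows of 250 bases were found for 39 of the 43 genes and searched on both strands for CCAAT, TGACNNNGC (the core of the antioxidant response element), GAAA with 2 bases of any kind before a further GAAA (the core of the interferon-stimulated response element) and TTCNNNGAA (the gamma-activated site), in which N is any base. Capitals mark the matches, which did not overlap in the sequences printed.
Psmb8: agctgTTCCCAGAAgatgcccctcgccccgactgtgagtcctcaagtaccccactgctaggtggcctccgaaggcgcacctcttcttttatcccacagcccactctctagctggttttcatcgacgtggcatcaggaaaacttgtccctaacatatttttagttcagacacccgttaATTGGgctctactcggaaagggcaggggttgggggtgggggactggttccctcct
Psmb9: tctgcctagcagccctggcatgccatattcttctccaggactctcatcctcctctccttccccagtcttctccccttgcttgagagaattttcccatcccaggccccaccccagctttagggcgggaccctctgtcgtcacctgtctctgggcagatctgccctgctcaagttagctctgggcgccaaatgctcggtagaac
Psmb10: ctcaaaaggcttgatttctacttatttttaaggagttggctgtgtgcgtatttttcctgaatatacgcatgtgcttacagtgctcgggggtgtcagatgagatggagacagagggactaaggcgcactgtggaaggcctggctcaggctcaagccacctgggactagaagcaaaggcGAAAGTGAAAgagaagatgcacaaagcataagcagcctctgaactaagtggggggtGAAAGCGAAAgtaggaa
Psmd13: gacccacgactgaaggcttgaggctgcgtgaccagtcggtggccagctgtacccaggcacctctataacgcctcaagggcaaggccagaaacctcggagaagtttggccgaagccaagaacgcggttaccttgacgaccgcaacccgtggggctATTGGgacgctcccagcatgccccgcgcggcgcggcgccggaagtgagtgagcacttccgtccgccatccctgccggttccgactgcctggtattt
Psma5: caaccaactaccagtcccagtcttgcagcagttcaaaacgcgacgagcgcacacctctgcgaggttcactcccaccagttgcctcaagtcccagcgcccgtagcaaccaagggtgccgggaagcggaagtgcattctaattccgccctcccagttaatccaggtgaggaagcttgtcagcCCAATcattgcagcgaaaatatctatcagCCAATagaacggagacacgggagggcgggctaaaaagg
The sequences printed lie at chr20:4657050-4657281, minus strand (Psmb8), chr20:4668750-4668951, plus strand (Psmb9), chr19:50743293-50743542, minus strand (Psmb10), chr1:205393998-205394247, plus strand (Psmd13) and chr2:198584255-198584501, plus strand (Psma5), each printed along its gene. They are the searched windows less the bases after the outermost annotated start, which leaves 232 bases for Psmb8, 202 for Psmb9, 247 for Psma5 and all 250 for Psmb10 and Psmd13. Psmb8 held 1 match to TTCNNNGAA and 1 to CCAAT on the reverse strand, Psmb10 held 2 matches to the interferon-stimulated core, and Psmb9 held none. Psma5 held 2 matches to CCAAT and Psmd13 held 1 on the reverse strand. CCAAT was found in 18 of the 39 proteasome windows (46.2%), against 34% of all 33469 RefSeq windows of that length. TGACNNNGC was found in 6 (15.4%, against 10.1% of all windows), the interferon-stimulated core in 5 (12.8%, against 3.41%), and TTCNNNGAA in 4 (10.3%, against 7.67%). These matches are descriptions of the letters and were not tested as binding sites.

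The values are MAS5 signals, a brightness per probe set that the array software scales to the same trimmed mean on each array, and they do not compare one gene with another because each probe set binds with its own strength. Pairs of arrays correlated at 0.947 to 0.980 over the probe sets, no array was a copy of another, and the GAPDH control probe sets gave 3'/5' ratios of 1.03 to 1.15 and those of beta-actin 1.85 to 2.39. Osteoblast markers showed the tissue to be bone, with 14 of 15 measured genes above the filter on low signals and only Sost below it. Whole bone also holds marrow, muscle attachments and cartilage, so in every result below fewer cells of a type and less RNA per cell cannot be told apart. All p-values from limma were adjusted by the Benjamini-Hochberg method over the 18625 probe sets tested, and a probe set is called at an adjusted p under 0.10. Of the 59 proteasome probe sets 54 were tested, with at least 1 for each of the 45 genes, and the other 5 (both minor probe sets of Psmb5 and 1 each of Psmc4, Psme1 and Psmd11) lay below the filter.

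Psmb8 and 1 probe set of Psme4 were higher on the P background, and 15 probe sets of other proteasome genes were lower there. Set against NP.P and NP together, P.NP and P together gave 17 called probe sets of the 54, where 22.5% of all probe sets tested were called. The lower calls were 15 of 54, against a background of 11.3% lower, and the higher calls were 2 of 54, against 11.1% higher. The median log2 difference was -0.10 over the 54 proteasome probe sets and 0.02 over all probe sets tested, with 46 of the 54 below 0. Read at 1 probe set for each gene, the one with the highest mean signal, 12 of the 45 genes were lower and 1 was higher. The signals of the 2 backgrounds did not overlap for 3 of the 54 probe sets (Psmb8, Psme4 and Psmd13), against 1.83% of all probe sets tested.

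**Figure D1:**
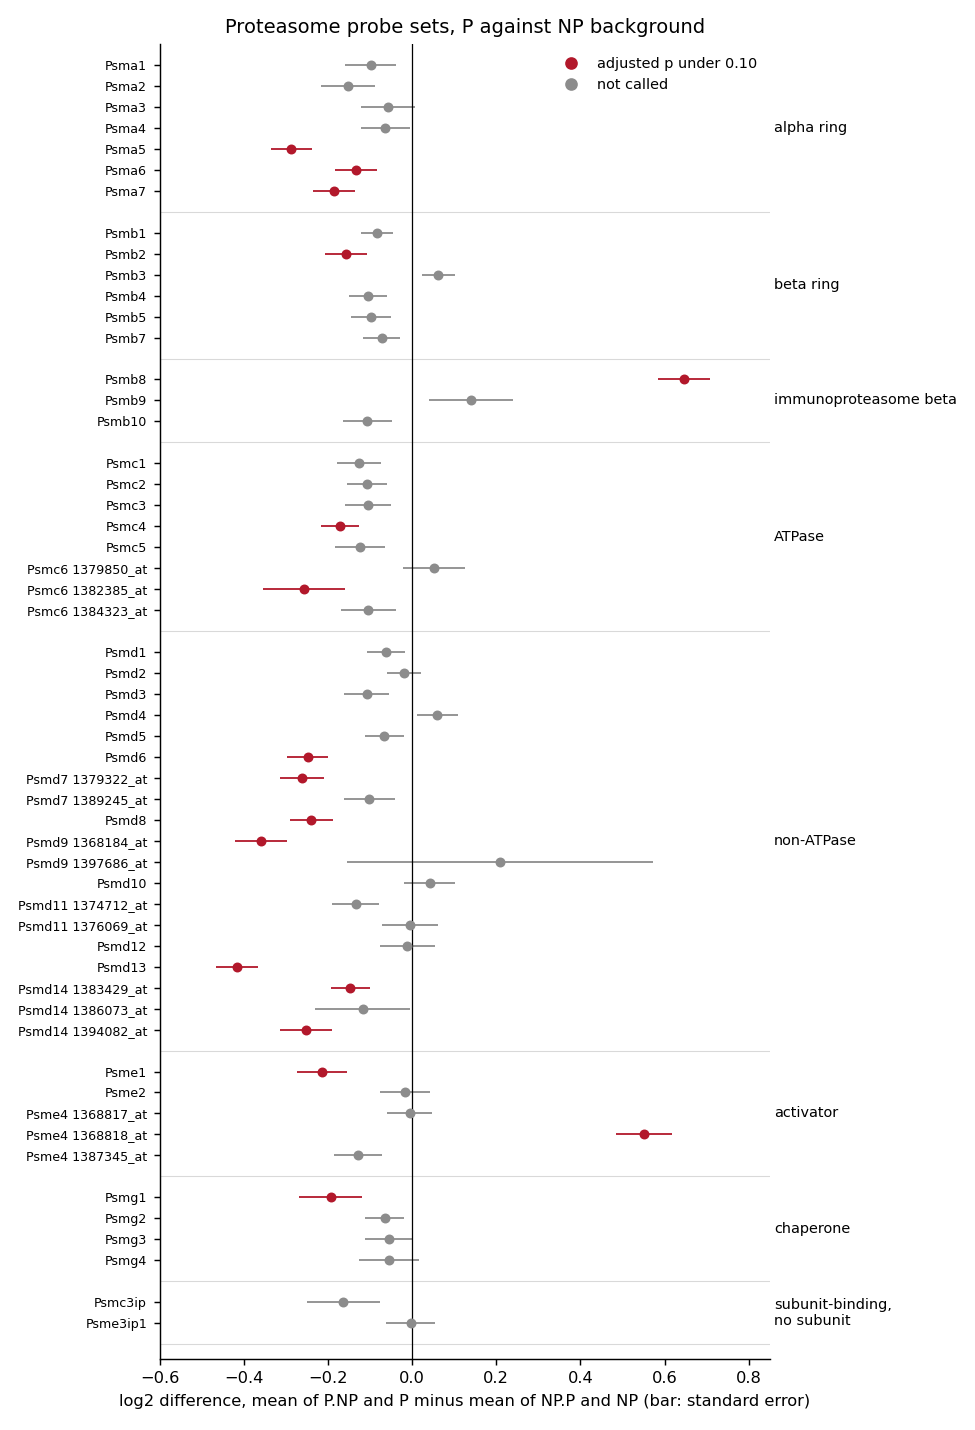
Log2 difference between the P background (P.NP and P, 10 arrays) and the NP background (NP.P and NP, 10 arrays) for each proteasome probe set tested, by role, with bars for the standard error. Points in red have an adjusted p under 0.10 (limma). Psmb8 (0.65) and 1 probe set of Psme4 (0.55) lie far to the right, and most others lie a little left of 0, down to -0.42 for Psmd13.

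Among the inducible beta subunits, Psmb8, which carries the chymotrypsin-like activity of the immunoproteasome, had signals of 3383, 3062, 3061, 3213 and 3207 in P.NP femora and of 3473, 2677, 3154, 3150 and 3555 in P femora. It had 1927, 1961, 1984, 2000 and 2208 in NP.P femora and 1918, 1957, 1893, 2554 and 2017 in NP femora. All 10 arrays of the P background thus lay above all 10 of the NP background, and the strains that share a background overlapped. The mean signals were 3185 ± 133 in P.NP, 3202 ± 346 in P, 2016 ± 111 in NP.P and 2068 ± 276 in NP (SD, n = 5 each). Psmb8 was 1.57-fold higher on the P background (0.65, standard error 0.06 on the log2 scale, adjusted p = 4.35e-07, limma), and the parental strains gave nearly the same size (0.63, standard error 0.09, adjusted p = 1.02e-04). Between strains that differ in the chromosome 4 segment it differed by -0.0016 in P.NP against P and by -0.03 in NP.P against NP, each with a standard error of 0.09 and neither called.

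Psmb9 and Psmb10, the other members of the trio, did not pass the test in any comparison. Psmb9, the inducible subunit that takes the place of Psmb6, had 2255, 1809, 2171, 2516 and 2169 in P.NP femora and 2571, 1728, 2238, 2211 and 2504 in P femora. In NP.P femora it had 2166, 1771, 1631, 1632 and 2192, and in NP femora 1864, 1704, 2835, 2462 and 2026. The 4 ranges overlapped, and the background difference was 0.14 (standard error 0.10, adjusted p = 0.374, limma). Psmb10, the inducible trypsin-like subunit, had 2177, 1930, 2252, 2184 and 2348 in P.NP femora and 2264, 1725, 2128, 2145 and 2232 in P femora. It had 2034, 2173, 2202, 2217 and 2527 in NP.P femora and 2391, 2171, 2600, 2354 and 2334 in NP femora. These ranges overlapped too, with a background difference of -0.11 (standard error 0.06, adjusted p = 0.231, limma).

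The constitutive counterparts Psmb5 and Psmb7 were not called in any comparison. Psmb5, the constitutive chymotrypsin-like subunit, had 14575, 15306, 14454, 12625 and 14071 in P.NP femora and 13664, 14557, 16340, 15231 and 15050 in P femora. It had 15586, 16358, 15800, 16525 and 16138 in NP.P femora and 14470, 16512, 14819, 16006 and 13757 in NP femora. The background difference of Psmb5 was -0.10 (adjusted p = 0.181, limma), with ranges that overlapped. Psmb7, the constitutive trypsin-like subunit, had 9800, 10702, 11123, 9728 and 10217 in P.NP femora and 9925, 11176, 9853, 10078 and 10294 in P femora. It had 10254, 11359, 12033, 11802 and 11893 in NP.P femora, where 4 of 5 arrays were above every array of the other strains, and 10436, 10402, 10685, 9543 and 9966 in NP femora. Psmb7 differed by 0.17 in NP.P against NP (adjusted p = 0.233, limma) and was not called. Psmb6, the constitutive caspase-like subunit, was read only by a probe set shared with the related gene Psmb6l1, with 7168, 7185, 7272, 6609 and 7300 in P.NP femora and 6560, 6755, 6474, 6956 and 6681 in P femora. This probe set had 7119, 7763, 7432, 7971 and 8435 in NP.P femora and 6428, 8074, 7388, 7399 and 7216 in NP femora. It was lower on the P background (-0.12, standard error 0.05 on the log2 scale, adjusted p = 0.0749, limma), with ranges that overlapped, and it is not among the 54 probe sets counted because of its 2 symbols.

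**Figure D2:**
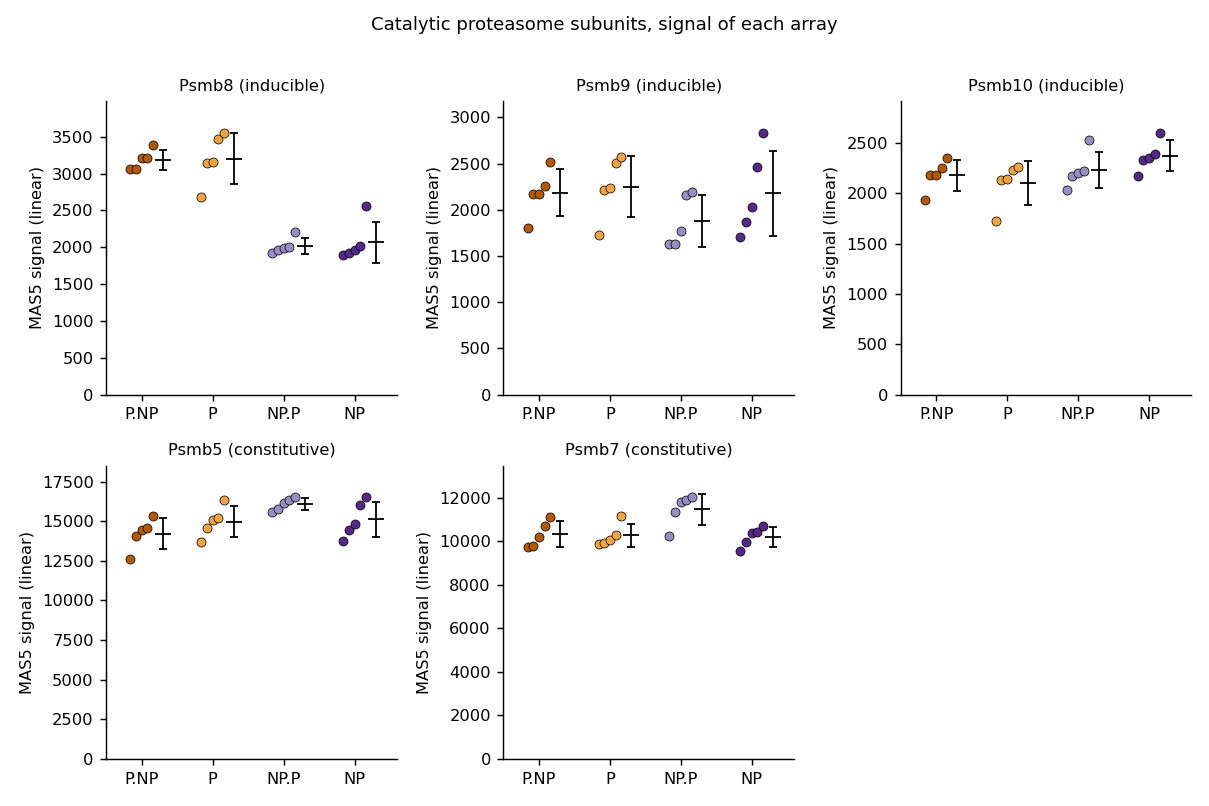
MAS5 signal (linear scale) of the inducible catalytic subunits in the upper row and of their constitutive counterparts below, for P.NP, P, NP.P and NP, 5 arrays each, with the mean and SD beside the points. Psmb8 separates the strains of the P background (2677 and above) from those of the NP background (2554 and below), and in the other panels the backgrounds overlap.

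The balance of inducible over constitutive subunit was compared within each array, which takes out the array's scale, by 9 exact two-sided permutation tests over arrays (the smallest p that 5 against 5 allows is 0.00794). The log2 ratio of Psmb8 to Psmb5 was higher by 0.65 in P than in NP (exact permutation p = 0.00794, adjusted over the 9 tests 0.0714), and its values in the 2 strains did not overlap. The ratio of Psmb10 to Psmb7 was lower by 0.26 in NP.P than in NP (exact permutation p = 0.0159, adjusted 0.0714), but in 8 of the 10 fits that left out 1 array its adjusted p was 0.107. It stayed under 0.10 only without NP replicate 2 or NP.P replicate 5. The ratio of Psmb9 to the shared Psmb6 probe set differed by -0.29 in NP.P against NP and by 0.18 in P against NP. Neither difference passed the threshold (exact permutation p = 0.151 and 0.341). The 7 ratios other than the first 2 had adjusted p-values of 0.238 or more.

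Psmb8 and Psmb9 lie side by side with Tap1 and Tap2, which code for the transporter of peptides into the endoplasmic reticulum, in the major histocompatibility complex on chromosome 20 (GRCr8), and these neighbours moved in different directions. Tap2 had mean signals of 518 ± 86.5 in P.NP, 547 ± 54.4 in P, 838 ± 144 in NP.P and 991 ± 123 in NP (SD, n = 5 each). It was thus lower on the P background (-0.77 on the log2 scale, adjusted p = 6.92e-06, limma), where Psmb8 was higher. Tap1 was lower as well (-0.27, adjusted p = 0.0495), and Psmb9 was not called. Among 12 genes of class I antigen processing tested, 5 were lower and none higher on the P background, and their median was -0.09. The other 3 were the class I heavy chain genes RT1-S3 (-0.35) and RT1-CE5 (-1.09, standard error 0.36) and the light chain gene B2m (-0.13). RT1-CE5 was dim, with mean signals of 157 in P.NP and 169 in P, 332 in NP.P and 280 in NP. RT1-S3 was also higher in NP.P against NP (0.41, adjusted p = 0.0655, limma) and was not called in P against NP (-0.16, adjusted p = 0.466). Only Tap2 of the 12 genes was called in P against NP. The probe sequences were not analysed here, so probe binding and the amount of RNA cannot be told apart for Psmb8 or its neighbours.

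Of 14 genes that interferon switches on and that were tested, 3 were lower on the P background and none was higher, with a median of -0.02. The lower genes were Rsad2 (-0.43), an antiviral enzyme, and the transcription factors Irf7 (-0.26) and Irf1 (-0.16), and 7 further genes of the list, Isg15 and Mx1 among them, lay below the filter. The immune cell markers, whose cells carry immunoproteasomes, were given by list. Of 8 B-lymphoid genes tested, 3 were higher and none lower on the P background, and the summed signal was 31219 to 38349 in P.NP, 33644 to 42592 in P, 26785 to 35645 in NP.P and 32194 to 40328 in NP. Of 7 T and NK cell genes tested (the 8 others of the list lay below the filter), 1 was higher and 1 lower on the P background. Cd3g was higher (1.30 on the log2 scale, adjusted p = 3.75e-09, limma). Its mean signals were 2709 in P.NP, 2946 in P, 1013 in NP.P and 1317 in NP. Nkg7 was lower (-0.34, adjusted p = 0.0127, limma). The sums of this list were 6155 to 8097 in P.NP, 6708 to 8772 in P, 4999 to 6243 in NP.P and 6523 to 7218 in NP. Of 12 macrophage genes 1 was higher (Csf1r) and 4 were lower (Cd163, C1qa, C1qb and C1qc), with sums of 67397 to 73366 in P.NP, 64963 to 72403 in P, 62690 to 75910 in NP.P and 68745 to 78979 in NP. The sums of all 3 immune cell lists overlapped between P and NP, and no marker of these lists was at 0 on every array. The part of these cells in the Psmb8 difference was not tested.

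In the constitutive core particle all 7 alpha ring genes had a log2 difference below 0 between P and NP background, with a median of -0.13, and 3 of them (Psma5, Psma6 and Psma7) were called lower. Psma5 had 9873, 9407, 10100, 8675 and 8897 in P.NP femora and 8950, 8952, 9620, 9380 and 10465 in P femora. It had 11116, 12066, 11704, 12273 and 13256 in NP.P femora and 10316, 10938, 10830, 12097 and 10649 in NP femora. Only the highest P array (10465) reached into the range of NP, and Psma5 was lower on the P background (-0.29, standard error 0.05 on the log2 scale, adjusted p = 3.97e-04, limma). Psma7 differed by -0.19 (adjusted p = 0.0176) and Psma6 by -0.13 (adjusted p = 0.0809). Psma3 was not called at its own probe set (-0.06). A brighter probe set shared by Psma3 and Psma3l, not among those counted, was lower (-0.17, adjusted p = 0.00963, limma). Of the 6 constitutive beta ring genes with a probe set of their own, Psmb2, which has no proteolytic site, was lower (-0.16, adjusted p = 0.0400), and Psmb3, at 0.06, was the only one above 0.

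In the regulatory cap Psmd13, a lid subunit, had the smallest adjusted p of the cap genes. It had 3256, 3089, 2847, 3016 and 2733 in P.NP femora and 3285, 3649, 3415, 3353 and 3378 in P femora. It had 4183, 4793, 4004, 4814 and 4289 in NP.P femora and 4477, 4063, 3953, 4302 and 3813 in NP femora. All arrays of the P background lay below all of the NP background, and within the P background all P.NP arrays lay below all P arrays. Psmd13 was at a 0.75-fold level on the P background (-0.42, standard error 0.05 on the log2 scale, adjusted p = 7.81e-06, limma), and in P against NP it differed by -0.27, standard error 0.07 (adjusted p = 0.036, 0.107 where only the arrays of these 2 strains were fitted). P.NP against P gave -0.19 for it (adjusted p = 0.46, limma), which was not called. Psmd13 lies on chromosome 1.

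Psmd9, a chaperone in the assembly of the cap, had at its brighter probe set 2342, 2340, 2052, 2277 and 2086 in P.NP femora and 2003, 2317, 2329, 2615 and 2624 in P femora. It had 2848, 3072, 3057, 3355 and 3508 in NP.P femora and 2505, 2520, 2696, 3110 and 2867 in NP femora. All P.NP arrays were below all arrays of the NP background, and the P arrays overlapped with NP. Psmd9 was lower on the P background (-0.36, standard error 0.06 on the log2 scale, adjusted p = 4.22e-04, limma), and its dimmer probe set gave 0.21 with a standard error of 0.36 and was not called. The lid subunits Psmd6 (-0.25, adjusted p = 0.00156) and Psmd8 (-0.24, adjusted p = 0.0031) were also lower. Psmd14, the deubiquitinase of the lid, was lower at 2 of its 3 probe sets (-0.25 and -0.15), and its partner Psmd7 at 1 of 2 (-0.26). Of 14 non-ATPase genes read at 1 probe set, 5 were lower and none higher. The ubiquitin receptor Psmd4 (0.06), the scaffold subunits Psmd1 (-0.06) and Psmd2 (-0.02) and the assembly chaperone Psmd10 (0.04) were among the 9 not called.

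**Figure D3:**
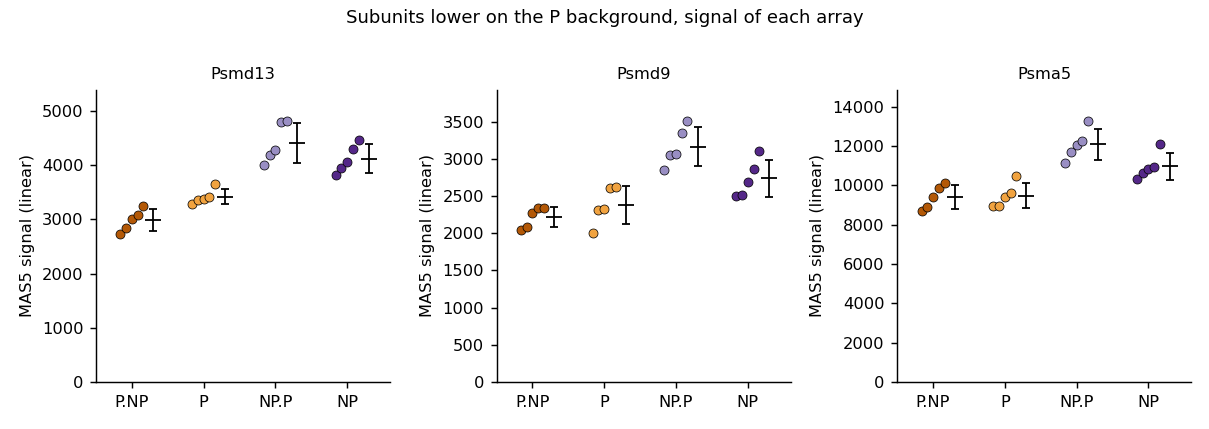
MAS5 signal (linear scale from 0) of Psmd13, Psmd9 (brighter probe set) and Psma5 in P.NP, P, NP.P and NP, 5 arrays each, with the mean and SD beside the points. In each panel both strains of the P background have lower means than both of the NP background, without overlap for Psmd13 (3649 and below, against 3813 and above).

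All 6 ATPase genes, read at 1 probe set each, had a background difference below 0, from -0.17 to -0.10, and 1 of them, Psmc4, was called (-0.17, adjusted p = 0.0133, limma). Psmc6 was called at 1 of its 3 probe sets (-0.26, adjusted p = 0.0808), which was not its brightest. Psmc2, the only proteasome gene on chromosome 4, was not called in any comparison. Of the 4 chaperones of core assembly (Psmg1 to Psmg4) Psmg1 was lower (-0.19, adjusted p = 0.0886), and the others lay between -0.065 and -0.055. The mean signals of Psmg1 were 4138 in P.NP, 3797 in P, 4942 in NP.P and 4169 in NP, so P.NP was close to NP. Between P and NP it was not called (-0.13, adjusted p = 0.573, limma). Psmc3ip and Psme3ip1, which are no subunits, were not called. Beyond the genes named Psm with a class letter, 11 other proteasome parts were tested, such as Pomp and Adrm1, and 1 was lower, Psmf1, an inhibitor and regulator of the core particle (-0.22, adjusted p = 0.00201).

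Among the activators, Psme1, a subunit of the interferon-inducible PA28 ring, was lower on the P background (-0.21, adjusted p = 0.0185, limma), whereas its partner Psme2 was not called (-0.02). Psme3, the nuclear PA28 gene, shared its 4 probe sets with other symbols and was not read. Psme4, the PA200 activator known for its role in histone degradation, was read at 3 probe sets that did not give the same result. At 1368818_at it had 2225, 2330, 1904, 2192 and 2107 in P.NP femora and 2008, 2160, 1806, 2439 and 1696 in P femora. There it had 1178, 1319, 1392, 1510 and 1531 in NP.P femora and 1428, 1524, 1395, 1420 and 1508 in NP femora. All arrays of the P background were above all of the NP background at this probe set, by 0.55, standard error 0.07 on the log2 scale (1.46-fold, adjusted p = 9.32e-06, limma), and P against NP gave 0.46 (adjusted p = 0.00579).

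The other 2 probe sets of Psme4 did not separate the backgrounds. At the brightest, 1368817_at, Psme4 had 7640, 6693, 7019, 6026 and 6895 in P.NP femora and 6384, 6609, 5816, 6579 and 6913 in P femora. There it had 6600, 7760, 7325, 7977 and 6762 in NP.P femora and 5914, 6156, 6066, 6812 and 5707 in NP femora. The background difference was -0.01 (standard error 0.05) at 1368817_at and -0.13 (standard error 0.06) at 1387345_at, neither of them called. These 2 probe sets gave the lowest p-values of any proteasome probe set in NP.P against NP (0.25, adjusted p = 0.133, and 0.24, adjusted p = 0.171, limma). Which transcript of Psme4 each probe set reads was not analysed here, so probe binding, transcript use and the amount of RNA cannot be told apart.

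**Figure D4:**
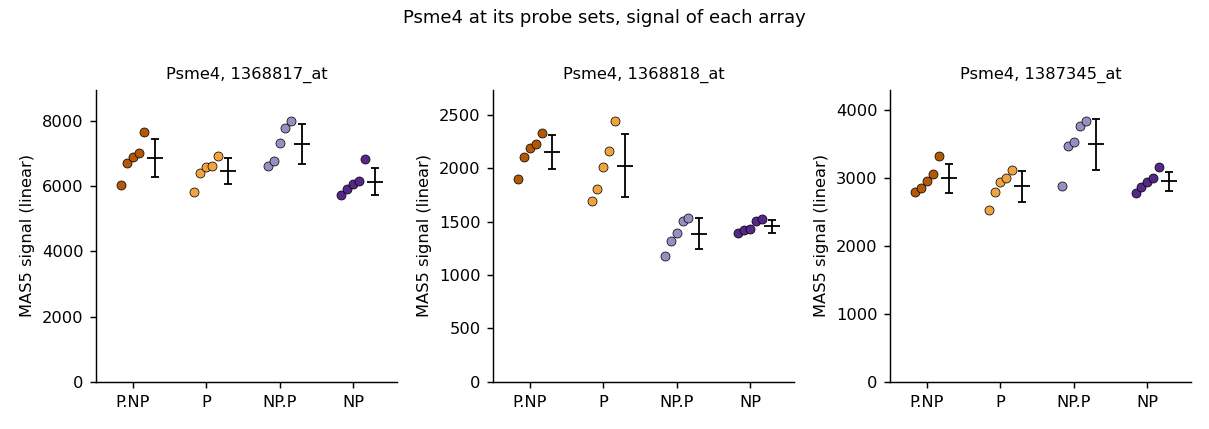
MAS5 signal (linear scale from 0) of Psme4 at each of its 3 probe sets in P.NP, P, NP.P and NP, 5 arrays each, with the mean and SD beside the points. At 1368818_at the strains of the P background (1696 and above) sit above those of the NP background (1531 and below), and at the other probe sets the strains overlap.

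Transfer of the chromosome 4 segment gave no called proteasome probe set in either direction. In NP.P against NP 0 of 54 were called, where 2.3% of all probe sets tested were called (0.816% higher and 1.49% lower), and 12 had an unadjusted p under 0.05 (13.1% of all tested had one), all of them higher in NP.P. The median was 0.10 over the 54, against -0.01 over all probe sets tested, with 43 above 0, whereas Psmb8, Psmb9 and Psmb10 were all below 0 (-0.20 to -0.03). No proteasome probe set had signals in NP.P and NP that did not overlap, against 3.28% of all. Without NP.P replicate 1, 2 probe sets were called. In P.NP against P 0 of 54 were called (0.231% of all tested, 0.113% higher and 0.118% lower), 2 had an unadjusted p under 0.05 (Psmd13 and 1 probe set of Psmc6, both lower in P.NP, where 7.70% of all tested had one), and the median was -0.01, against 0.00 over all. Only Psmd13, 1 of 54, had signals that did not overlap between P.NP and P, against 1.73% of all. For a difference of the segment's effect between the backgrounds none of the 54 was called by limma (0.317% of all tested were called), 5 had an unadjusted p under 0.05 (9.71% of all tested had one), and the lowest adjusted p was 0.300, for Psme4 at 1368817_at.

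In P against NP, which shares its arrays with each of the comparisons above, 3 of 54 were called (5.36% of all tested), namely Psmb8 and Psme4 at 1368818_at, higher (2.43% of all tested), and Psmd13, lower (2.94%). The same 3 were the ones with signals in P and NP that did not overlap, against 4.71% of all. Over the 54 the median was -0.05, against 0.00 over all, and 37 were below 0. The F test over the 4 strains called 17 of 54, where 18.2% of all probe sets tested were called. Without NP.P replicate 2 the F test called 11 of them, and without NP.P replicate 4 or 5 it called 10.

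The constitutive genes of core and cap (Psma, Psmb, Psmc and Psmd, with the assembly chaperones Psmd9 and Psmd10 among them) were followed together by a score, the mean over 33 genes of the log2 signal minus the gene's mean over the 20 arrays. It was -0.08 ± 0.05 in P.NP, -0.04 ± 0.05 in P, 0.11 ± 0.06 in NP.P and 0.01 ± 0.05 in NP (SD, n = 5 each). The NP.P arrays, at 0.04 to 0.18, lay above all arrays of the P background, and the NP arrays, between -0.05 and 0.07, overlapped with those of NP.P and P. Markers of red cell precursors followed the same order of strains, with a mean score of -0.16 in P.NP, -0.09 in P, 0.24 in NP.P and 0.01 in NP. All 21 measured erythroid genes passed the filter, none was at 0, and 17 of 21 were lower and none higher on the P background, with a median of -0.24. Their summed signal was 310125 to 344131 in P.NP, 321814 to 373887 in P, 397828 to 437362 in NP.P and 326554 to 387208 in NP. In P against NP only 1 of the 21 was lower (Rhag) and none was higher, with a median of -0.07. In NP.P against NP 4 of the 21 were higher (Kel, Hemgn, Fech and Urod) and all 21 were above 0, with a median of 0.25. The calls between the backgrounds thus rest in large part on the high NP.P arrays. Kel, Add2 and Bpgm of this list are among the genes that the study reported as differing within the transferred segment. For them a local effect of the segment and the amount of red cell precursors cannot be told apart. The part of red cell precursors in the lower proteasome signals was not tested.

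**Figure D5:**
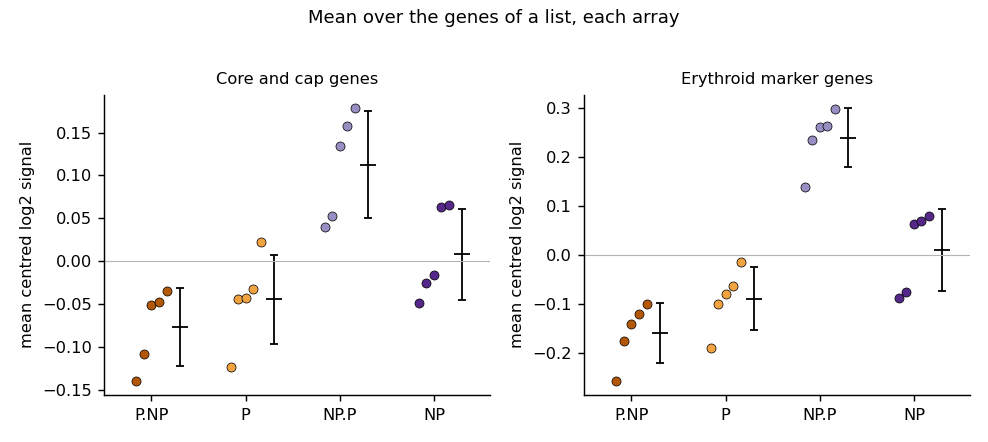
Mean centred log2 signal of the 33 core and cap genes of the proteasome (left) and of the erythroid marker genes (right), for each array of P.NP, P, NP.P and NP, with the mean and SD beside the points. In both panels NP.P has the highest mean (its arrays run between 0.04 and 0.18 for the proteasome genes) and P.NP the lowest.

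The remaining cell type lists held few calls. Of 10 granulocyte genes 2 (Lcn2 and Csf3r) were lower on the P background and none was higher, of 14 osteoblast genes 3 were higher (Postn, Alpl and Phex) and none lower, of 18 skeletal muscle genes 1 was higher (Myh1), and of 13 cartilage genes none was called. The summed granulocyte signal was 186808 to 238841 in P.NP, 209860 to 243123 in P, 196765 to 239706 in NP.P and 213754 to 258645 in NP. The summed cartilage signal was uneven within P, at 79737 to 226223, against 152146 to 203588 in P.NP, 172844 to 219605 in NP.P and 149179 to 224375 in NP.

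Of 11 tested regulators of proteasome genes 1 was lower on the P background, Mafk (-0.20, adjusted p = 0.0109, limma), a small Maf partner of the Nrf factors, and the median was 0.03. Nfe2l1, the factor that raises proteasome genes when the proteasome is inhibited, gave -0.05 (adjusted p = 0.820) and Nfe2l2 gave -0.03 (adjusted p = 0.647). Of 9 genes of ubiquitin activation and shuttling tested, Ubqln2 was higher (0.20, adjusted p = 0.0852) and Ubqln4 lower (-0.13, adjusted p = 0.0772), both of them shuttle factors.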

How the data were processed

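RNA from 20 proximal femur samples, 5 for each of the strains P.NP, P, NP.P and NP, was hybridised to 20 Affymetrix Rat Genome arrays. The deposited values are MAS5 signal intensities that the authors' array software scaled per array. No depth applies to arrays, and 5 arrays a strain limit the precision. Nothing says that the samples were single animals, so p-values measure the spread between these samples. Signals under 1 (190 values) were set to 1 and taken to log2. Probe sets with a mean log2 signal at or above the 40th percentile (signal 170) were tested with limma 3.58.1 (R 4.3.3) on all 4 strains, at a false discovery rate of 10%. Symbols came from the platform annotation and genes from RefSeq (GRCr8). A gene was read at its brightest probe set. The study's RMA values and detection calls were not used. Values in full were given for the catalytic subunits, for members called between strains and for the 5 with the smallest adjusted p. Members and lists were chosen with earlier results of these data known. Alternatives were the filter, quantile normalization, a log2 offset, the mean-variance trend, other tests and each array left out. The fit was tested on simulated data.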

Additional observations from a re-analysis of the deposited data

Results flagged for a closer look

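Of 48 groups of 5 arrays (11 named probe sets and the shared Psmb6 probe set, in each strain), 4 held an array that stood apart from the other 4 by more than 0.71 of the group's range, and chance gives about 1 in 20. Psmb10 was at 1725 in P replicate 2, against 2128 to 2264 in the other P arrays. Psmb8 was at 2208 in NP.P replicate 5, against 1927 to 2000 in the other NP.P arrays. Psmb8 was at 2554 in NP replicate 4, against 1893 to 2017 in the other NP arrays, and this array still lay below every array of the P background. The probe set shared by Psmb6 and Psmb6l1 was at 6609 in P.NP replicate 4, against 7168 to 7300.3 in the other P.NP arrays.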

How the results depend on the processing

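The number of proteasome probe sets called by the F test was 17, and it was 11 without the filter on low signals, 11 after quantile normalization and 11 at a false discovery rate of 5%. Leaving out each array in turn gave 10 to 17 for the F test, 14 to 21 for the P against the NP background, 3 to 4 for P against NP, 0 to 2 for NP.P against NP, and 0 throughout for P.NP against P and for the difference of the segment's effect between backgrounds. NP.P against NP gave 1 call with the filter at the 60th percentile and 1 with a mean-variance trend. The log2 differences of Psmb8 (0.63 to 0.69), Psme4 at 1368818_at (0.52 to 0.58), Psmd13 (-0.43 to -0.40), Psmd9 (-0.38 to -0.33) and Psma5 (-0.31 to -0.27) between the backgrounds stayed called with any 1 array left out, as did those of P against NP for Psmb8 (0.59 to 0.71), Psme4 at 1368818_at (0.39 to 0.52) and Psmd13 (-0.30 to -0.24). No called value turned its direction in the alternatives run. The causes of these changes were not tested, except that a stricter rate calls fewer by construction.

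The ratio of Psmb8 to Psmb5 in P against NP ran between 0.58 and 0.70 with arrays left out, and that of Psmb10 to Psmb7 between -0.29 and -0.23 in NP.P against NP. In P against NP the ratio of Psmb10 to Psmb7 passed the threshold after quantile normalization (-0.19, adjusted p = 0.0357) and ran between -0.23 and -0.087 with arrays left out, passing without NP replicate 2. The ratio of Psmb9 to the shared Psmb6 probe set in NP.P against NP ran between -0.41 and -0.19 and passed without NP replicate 2 (adjusted p = 0.0893).

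Whether replicate numbers pair the samples was not settled. Of 30 pairs of same-numbered arrays, 5 had deviations that correlated above 0.1 (median 0.02, highest 0.33). The median of the pairs with different numbers was -0.004, and 9 of 20 arrays correlated best with their own number. With the replicate number as a block, the F test called 15 probe sets, the backgrounds 18 and P against NP 3. The block took the ratio of Psmb8 to Psmb5 in P against NP (0.65) and that of Psmb10 to Psmb7 in NP.P against NP (-0.26) to an adjusted p of 0.1875 (exact permutation), where fewer arrangements are possible.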
